A study of Mus musculus with 8 samples.

Results

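BCL2 family proteins decide at the mitochondrial outer membrane whether a cell survives. The anti-apoptotic members (Bcl2, Bcl2l1, Mcl1 and the Bcl2a1 copies) hold back the effectors Bax and Bak1, which otherwise oligomerise and release cytochrome c, and the BH3-only members such as Bcl2l11 (BIM) and Pmaip1 (NOXA) relieve that restraint. Mcl1 protein turns over quickly, and Bcl2a1 is a classical target gene of NF-κB, the pathway that the ubiquitin-editing enzyme A20 (gene Tnfaip3) dampens. Microglia, the macrophages that live in brain and spinal cord tissue, proliferate in the spinal cord after a peripheral nerve is cut.

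The transcripts of 10 members of this family, chosen by gene symbol among the 27998 genes of the deposited matrices, were followed in 8 single-cell RNA-sequencing libraries of microglia. The cells were YFP-positive cells sorted from the lumbar spinal cord of C57BL/6 mice, without injury (naive) or 1, 2 and 3 days after transection of both sciatic nerves. Control mice carried Cx3cr1-yfp-creER/+, and A20 cKO mice also carried Tnfaip3 fl/fl, so that both genotypes held the Cre driver, which is active in microglia and in other Cx3cr1-expressing cells. Recombination was induced with tamoxifen, which the study's methods give for its experiments in general without naming the control mice of these libraries. Each library pooled several animals and each genotype and time point had 1 library, so differences between conditions are given without a test and every interval on them covers counting error only.

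The libraries held between 1620481 and 15817426 unique molecular identifiers (UMIs, 1 per captured transcript) after a filter that kept 14626 of 14883 barcodes, between 558 and 3585 cells each, with a median of 2780 to 4274 UMIs a cell. The 5 libraries of control day 3 and of the A20 cKO mice stood apart from control naive, day 1 and day 2. Pairs among these 5 libraries shared 117 cell barcodes among 18280739 possible cell pairs, against 90 among 53453400 for pairs between the 5 and the other 3. The summed level of a 6-gene neutrophil list was 0 in the other 3 libraries and 24.4 to 45.6 CPM (counts scaled to 1 common total of UMIs per library) in the 5. Cells with 2 or more markers of another cell type made up 1.58% to 3.07% of the 3 and 8.49% to 22.6% of the 5, and the summed level of 7 microglial genes ranged from 11339 to 23570 CPM with its 3 lowest values in injured A20 cKO libraries. Genotype therefore cannot be told apart from this split at naive, day 1 and day 2, whereas day 3 compares libraries within the 5. Tnfaip3 itself was at 6.83 to 25.3 CPM in the control libraries and at 42.3 to 67.7 CPM in those labelled A20 cKO. The counts come from transcript 3′ ends and the deleted stretch of the gene is not given in the sources used here, so they do not check the labels, and A20 cKO below names the libraries so labelled.

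Bcl2a1a, Bcl2a1b and Bcl2a1d are near-identical copies on chromosome 9 (GRCm38), where they lie at chr9:88956900-88962419 (plus strand), chr9:89199209-89207827 (plus strand) and chr9:88723285-88731914 (minus strand). Each has 2 exons in the GENCODE annotation. Their coding sequences of 519 bases differ at 11 positions between Bcl2a1a and Bcl2a1b, 7 between Bcl2a1a and Bcl2a1d and 6 between Bcl2a1b and Bcl2a1d. The first 120 coding bases are shown because they hold several of these differences, and capitals mark positions at which the copies are not all alike:
Bcl2a1a: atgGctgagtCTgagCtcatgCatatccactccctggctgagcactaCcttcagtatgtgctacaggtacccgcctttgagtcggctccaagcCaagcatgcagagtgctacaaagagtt
Bcl2a1b: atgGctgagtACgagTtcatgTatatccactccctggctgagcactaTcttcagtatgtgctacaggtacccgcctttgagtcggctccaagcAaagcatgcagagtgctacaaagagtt
Bcl2a1d: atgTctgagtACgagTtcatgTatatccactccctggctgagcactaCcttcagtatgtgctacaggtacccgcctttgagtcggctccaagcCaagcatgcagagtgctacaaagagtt

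Reads can be assigned to 1 copy only where they cross such a difference. Among all windows of 91 bases, the length of the transcript read, 53.4% of those in the Bcl2a1a transcript, 64.4% in Bcl2a1b and 38.9% in Bcl2a1d were absent from the other copies, Bcl2a1c included. In the last 300 bases, nearest to where these libraries read, the shares were 60.5%, 50.5% and 10.95%. The level of a single copy and the proportion between copies are therefore uncertain, and the sum of the 3 is given beside them.

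The promoters of the copies are near-identical as well. The stretch common to the 3 upstream windows (RefSeq, GRCm38.p6), cut before the first annotated transcript base, is shown because the levels of the copies differed between libraries to unlike extents, with capitals where the copies are not all alike:
Bcl2a1a, chr9:88956714-88956855, plus strand: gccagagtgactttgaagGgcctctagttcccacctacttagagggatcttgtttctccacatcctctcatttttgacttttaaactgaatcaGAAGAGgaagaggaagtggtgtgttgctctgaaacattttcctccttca
Bcl2a1b, chr9:89199023-89199164, plus strand: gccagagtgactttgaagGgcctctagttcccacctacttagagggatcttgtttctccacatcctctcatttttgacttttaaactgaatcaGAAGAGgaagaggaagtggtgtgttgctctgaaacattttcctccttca
Bcl2a1d, chr9:88731915-88732050, minus strand: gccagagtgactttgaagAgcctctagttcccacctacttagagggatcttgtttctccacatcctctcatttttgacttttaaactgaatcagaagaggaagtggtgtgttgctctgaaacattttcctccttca

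Bcl2a1a and Bcl2a1b were identical over these 142 bases, and Bcl2a1d differed from both at 7 aligned positions, 6 of them a gap. The motif GAGGAAGT, searched on both strands, occurred in the RefSeq promoter windows of all 3 copies and of Bak1, and in 3.20% of all 32851 promoter windows. The NF-κB consensus motif occurred in a window of Bcl2l1 and in none of the copies, against 8.46% of all windows. Windows were matched for 9 of the 10 genes, all but Pmaip1, and a match or its absence describes letters only.

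Among the anti-apoptotic members, Mcl1, the short-lived guardian that many myeloid cells depend on, had its highest level 1 day after injury in control mice. Its level was 104 CPM in control naive, 239 at day 1, 96.8 at day 2 and 197 at day 3. The A20 cKO libraries gave 169 CPM without injury, 159 at day 1, 145 at day 2 and 183 at day 3. The control libraries thus alternated while the A20 cKO libraries stayed between the control extremes. Relative to the median gene, the control day 1 library was 2.49-fold above control naive (log2 ratio 1.32, 95% counting interval 1.098 to 1.553), and day 2 was 2.53-fold below day 1. Mcl1 was the only one of the 10 members past 2-fold higher on control day 1, a direction in which 5.09% of the 8866 genes with at least 100 UMIs were past 2-fold, and the only one past 2-fold lower from day 1 to day 2 (1.91% of genes). In cells thinned to 2000 UMIs, the share with an Mcl1 UMI was 18.5% in control naive and 35.5% on day 1, and in unthinned cells 24.5% and 58.5%. Immediate-early genes moved beside Mcl1: the top 20% of control day 1 cells began at 3.11% of a cell's UMIs in 11 such genes, against 0.134% to 0.724% in the other 7 libraries, and the part of this in the Mcl1 level was not tested. In the remaining cells of control day 1 Mcl1 was at 219 CPM, against 106 CPM in those of control naive. These cells reached up to 3.11% of their UMIs in the 11 genes on control day 1 and 0.168% in control naive. They were therefore not matched for immediate-early genes, and their Mcl1 levels cannot separate the 2.

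Bcl2l1, which encodes BCL-XL, was lower at each later time point of the control libraries. It was at 117 CPM in control naive, 90.7 at day 1, 69.4 at day 2 and 44.6 at day 3. The A20 cKO libraries were at 54.4 CPM without injury, 78.3 at day 1, 53.1 at day 2 and 52.3 at day 3. Control naive was higher than all 7 other libraries. Control day 3 lay 2.75-fold below control naive and A20 cKO naive 2.22-fold below it, each the only member past 2-fold lower in its comparison (3.02% and 2.48% of genes). Both comparisons cross the split between the libraries. Within the 5, A20 cKO day 3 differed from control day 3 by 0.35 (log2, 0.05 to 0.64), in the opposite direction. Bcl2, the founding member, spanned 34.1 CPM in A20 cKO naive to 57.5 CPM on A20 cKO day 1 and passed 2-fold in no comparison.

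**Figure D1:**
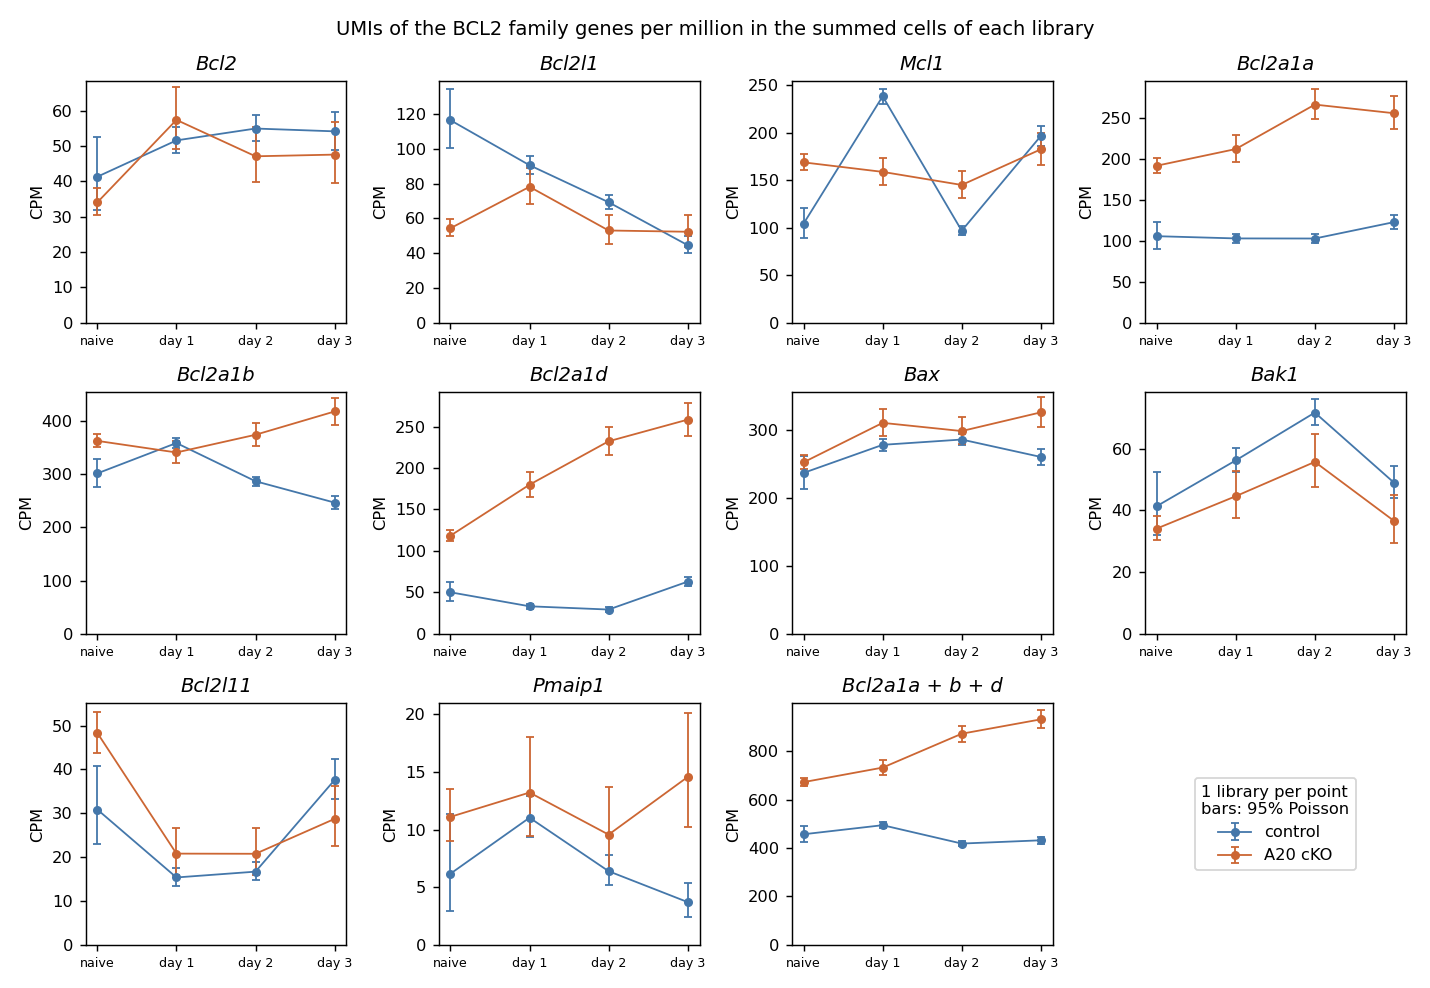
Level of each of the 10 genes, and of the 3 Bcl2a1 copies summed, in CPM (vertical axes from 0) in control and A20 cKO libraries by time point. Each point is 1 library with its 95% Poisson interval, which covers counting error only. Mcl1 peaks at 239 CPM on control day 1, and the Bcl2a1 sum lies between 673 and 933 CPM in A20 cKO against 419 to 495 CPM in control.

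The Bcl2a1 copies, which encode the anti-apoptotic protein A1, took 40.0% to 44.2% of the UMIs of the 10 genes in control libraries and 51.7% to 58.1% in A20 cKO libraries. The sum of the 3 copies was 457 CPM in control naive, 495 at day 1, 419 at day 2 and 432 at day 3. The A20 cKO libraries gave 673 CPM without injury, 733 at day 1, 873 at day 2 and 933 at day 3. Every A20 cKO library was above every control library, as for 5.32% of the 6484 genes with at least 20 CPM on average. Of the pairs at 1 time point, only day 3 lies within the 5 libraries that stand apart, and the others cross the split. Relative to the median gene the sum was higher in A20 cKO by 0.51 (log2) in naive, 0.37 at day 1, 1.00 at day 2 and 1.23 at day 3. The share of cells with a UMI of any copy, in cells thinned to 2000 UMIs, was 54.2% to 61.5% in control and 65.1% to 75.1% in A20 cKO. Only 1 of 22 kept cells that carried markers of another cell type and few microglial ones had a UMI of any copy (4.55%, exact binomial interval 0.115% to 22.8%, median 1279 UMIs), against 77.2% of all kept cells, unthinned, at a median of 3532 UMIs.

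Bcl2a1d carried the widest range of the 10 genes. It was at 49.99 CPM in control naive, 33.1 at day 1, 29.1 at day 2 and 62.9 at day 3. The A20 cKO libraries were at 118 CPM without injury, 180.0 at day 1, 232 at day 2 and 259 at day 3. The genotypes did not overlap, and the highest library was 8.87-fold above the lowest. The A20 cKO to control log2 ratio was 1.19 in naive (0.87 to 1.54), 2.24 on day 1 (2.06 to 2.43), 2.94 on day 2 (2.77 to 3.11) and 2.16 on day 3 (1.98 to 2.33), of which the last compares libraries within the 5. Within A20 cKO, day 2 was 2.06-fold and day 3 was 2.34-fold above naive, where 3.31% and 2.48% of genes were past 2-fold higher. Cells with a Bcl2a1d UMI made up 5.60% to 12.2% of thinned control cells and 17.3% to 33.5% of thinned A20 cKO cells, and the unthinned shares were 11.3% to 17.6% and 24.5% to 54.3%.

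Bcl2a1a followed with smaller differences. It was at 106 CPM in control naive, 103 at day 1, 103 at day 2 and 123 at day 3. The A20 cKO libraries were at 192 CPM without injury, 212 at day 1, 266 at day 2 and 256 at day 3. Again no A20 cKO library overlapped the controls, and the log2 ratio passed 2-fold on day 2 (1.32, 1.19 to 1.44) and day 3 (1.18, 1.03 to 1.32). Bcl2a1b, the most counted copy, overlapped between genotypes, at 302 CPM in control naive, 359 at day 1, 287 at day 2 and 247 at day 3, and at 363, 341, 374 and 418 CPM in A20 cKO at the same 4 time points. Its log2 ratio was 0.22 in naive, -0.27 at day 1, 0.33 at day 2 and 0.88 at day 3.

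Bcl2a1a and Bcl2a1d were the only 2 of the 9 members with at least 20 CPM on average whose 4 A20 cKO libraries all lay above the 4 control libraries, as did 5.32% of the 6484 genes at that level, and no member lay wholly lower (5.43% of genes). The same 2 genes also lay wholly higher in the 5 libraries that stand apart than in the other 3, as did 23.2% of genes, and none wholly lower (12.5%), with control day 3 at 123 CPM for Bcl2a1a and 62.9 CPM for Bcl2a1d, above the other controls and below every A20 cKO library. Members past 2-fold higher in A20 cKO were 1 of 10 in naive (6.47% of genes), 1 on day 1 (10.3%), 2 on day 2 (9.81%) and 2 of 9 on day 3 (2.39%).

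**Figure D2:**
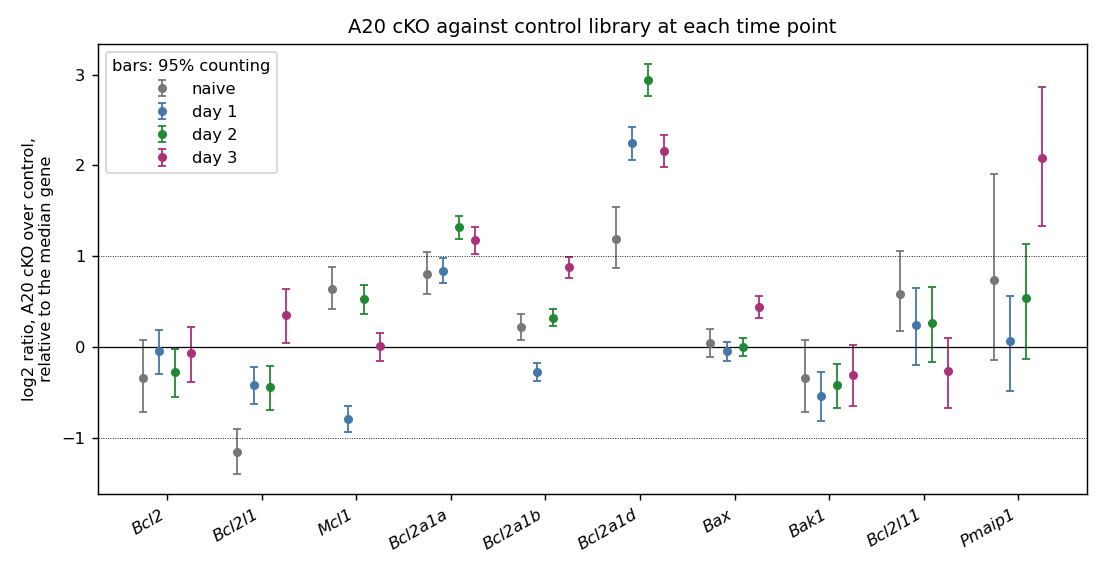
Log2 ratio of the A20 cKO over the control library for each gene at naive and days 1, 2 and 3, relative to the median gene. Points are single pairs of libraries, bars are 95% counting intervals and dotted lines mark 2-fold. Bcl2a1d lies above 2-fold at all 4 time points (1.19 to 2.94), and the point of Pmaip1 on day 3 rests on 37 and 27 UMIs.

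The mix of the copies differed between libraries as well. Bcl2a1d made up 10.9% of the UMIs of the 3 copies in control naive, 6.68% at day 1, 6.96% at day 2 and 14.5% at day 3, and 17.6%, 24.5%, 26.6% and 27.7% in A20 cKO at the same time points. The share of Bcl2a1b was 66.0%, 72.5%, 68.5% and 57.1% in control, against 53.9%, 46.5%, 42.9% and 44.9% for A20 cKO, while Bcl2a1a kept between 20.8% and 30.5% throughout. Among cells with any copy, UMIs of 2 or more copies were found in 34.0% to 41.5% of control cells and in 48.7% to 75.3% of A20 cKO cells, unthinned. Since the copies share most of their sequence, these proportions rest on the reads that the authors' counting could place.

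**Figure D3:**
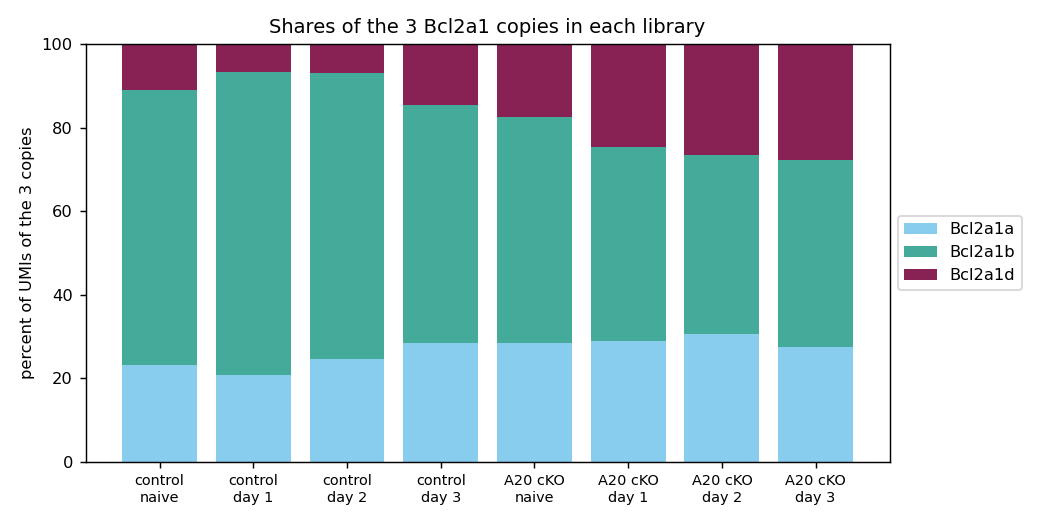
Share of each of the 3 Bcl2a1 copies among their summed UMIs (percent, stacked to 100) in the 8 libraries. The Bcl2a1d part ranges from 6.68% on control day 1 to 27.7% on A20 cKO day 3.

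Of the effectors, Bax had the narrower range. Bax, the cytosolic effector that inserts into mitochondria, was at 237 CPM in control naive, 278 at day 1, 286 at day 2 and 260.5 at day 3, and at 253, 311, 299 and 326 CPM in A20 cKO. Its highest library was 1.38-fold above its lowest, the narrowest range of the 10 genes. Bak1, the effector resident in the mitochondrial membrane, was at 41.3 CPM in control naive, 56.2 at day 1, 71.7 at day 2 and 49.0 at day 3, and at 34.1, 44.6, 55.7 and 36.6 CPM in A20 cKO. Its highest library was 2.103-fold above its lowest, a wider range than that of Bcl2 (1.69-fold). In both genotypes day 2 was its highest time point, and relative to the median gene neither effector passed 2-fold in any of the 15 comparisons. The UMIs of the anti-apoptotic members per effector UMI were 2.59 in control naive, 2.62 at day 1, 1.79 at day 2 and 2.35 at day 3, and 3.24, 2.89, 3.16 and 3.35 in A20 cKO. Without Mcl1 these ratios were 1.52 to 2.21 in control and 2.45 to 2.85 in A20 cKO, and in both forms every A20 cKO library was above every control library, with each comparison before day 3 crossing the split. Without the 3 Bcl2a1 copies, a form added after the values were seen, the ratios were 0.94, 1.14, 0.62 and 0.95 in the control libraries, and A20 cKO gave 0.90, 0.83, 0.69 and 0.78. The genotypes then overlapped, with A20 cKO below control in naive and on days 1 and 3 and above it on day 2.

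Bcl2l11, the BH3-only activator that sets off apoptosis when survival signals are withdrawn, was lower on days 1 and 2 in both genotypes. It was at 30.9 CPM in control naive, 15.4 at day 1, 16.7 at day 2 and 37.6 at day 3, and at 48.3 CPM in A20 cKO naive, 20.8 at day 1, 20.8 at day 2 and 28.7 at day 3. Days 1 and 2 were the 2 lowest time points of each genotype. The log2 ratio to naive was -0.89 on control day 1 and -0.78 on day 2, and -1.25 (-1.66 to -0.87) on A20 cKO day 1 and -1.14 (-1.55 to -0.76) on day 2. Among the members of the A20 cKO libraries it was the only member past 2-fold lower on both days, against 1.57% and 2.28% of genes. In control, Bcl2l11 on day 3 was 2.04-fold above day 2, across the split. It was 1 of 10 members past 2-fold higher there, near the share of all genes (9.66%). With TMM or DESeq2 size factors Bcl2l11 did not pass, so this count depends on the normalization. The thinned share of cells with a Bcl2l11 UMI was 6.37% in control naive and 3.01% on day 1, and 8.77% and 3.49% in A20 cKO, while the unthinned shares were 8.10%, 6.29%, 13.0% and 6.66%.

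Pmaip1, a BH3-only protein that binds MCL1, was the least counted member, with 10 to 155 UMIs a library and 3.71 to 14.6 CPM. It was lowest on control day 3 (27 UMIs) and highest on A20 cKO day 3 (37 UMIs), and their log2 ratio of 2.08 had a counting interval of 1.34 to 2.86. These 2 libraries together held fewer than the 100 UMIs required for a count of members. With 99 UMIs in A20 cKO naive, Pmaip1 was the only member past 2-fold higher there than in control day 3 (1.01% of genes), a pair that differs in injury as well as genotype. Over the 15 comparisons the median log2 ratio of the members lay between -0.22 and 0.41, with all genes centred on 0.

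In the directions not named so far, no member passed 2-fold. For control against naive these were lower on day 1 (5.22% of genes), both on day 2 (7.18% higher and 4.27% lower) and higher on day 3 (7.48%). For A20 cKO against naive they were higher on day 1 (1.38%) and lower on day 3 (1.48%), and for A20 cKO against control they were lower on day 1 (5.68%), day 2 (5.36%) and day 3 (1.73%). Fewer genes moved between neighbouring A20 cKO days, with 1.5% higher and 0.278% lower from day 1 to day 2 and 0.486% and 0.324% from day 2 to day 3. The remaining directions were higher from control day 1 to day 2 (3.60%), lower from control day 2 to day 3 (4.30%) and lower in A20 cKO naive than in control day 3 (1.45%).

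Most other genes of the pathway overlapped between the genotypes, as did most genes at large. Of all 6484 genes with at least 20 CPM on average, 5.32% lay wholly higher in A20 cKO and 5.43% wholly lower. Of 16 further BCL2 family genes, 7 to 10 had enough UMIs in a comparison and at most 1 passed 2-fold in a direction. Of 14 genes downstream of the mitochondria, 11 to 14 had enough, and 0 to 4 passed 2-fold higher and at most 1 lower. Among all genes, 0.486% to 10.3% were past 2-fold higher in a comparison and 0.278% to 5.68% lower. The 4 of 14 downstream genes were higher on A20 cKO day 2 against control day 2, across the split (9.81% of genes). On A20 cKO day 3 against control day 3, within the 5 libraries that stand apart, 0 of 14 were higher (2.39%). Among genes with at least 20 CPM on average, 6 of 7 family genes, 7 of 10 downstream genes and 3 of 3 enzymes of Mcl1 turnover overlapped between A20 cKO and control libraries. Between the 5 libraries that stand apart and the other 3, 6, 6 and 1 of them overlapped, where 23.2% of all genes lay wholly higher in the 5 and 12.5% wholly lower. The BH3-only gene Bmf was at 23.2 CPM on control day 1 and 24.8 on day 2, against 48.1 in control naive and 69.4 on day 3. In the downstream list, Birc3, an inhibitor of apoptosis controlled by NF-κB, was at 18.3 to 28.5 CPM in control and 39.9 to 44.5 CPM in A20 cKO. Among genes of these lists with at least 20 CPM on average, Birc3 was the only one wholly higher in A20 cKO (5.32% of all genes at that level). Below that level, the family gene Bcl2l2 also lay wholly higher, at 4.71 to 7.08 CPM against 1.21 to 3.98 CPM in control. Wholly lower in A20 cKO (5.43% of all genes) were the BH3-only gene Bad, at 38.6 to 48.2 CPM against 50.6 to 77.1 CPM in control, and the mitochondrial channel genes Vdac1, at 82.7 to 88.2 against 89.5 to 98.0 CPM, and Vdac2, at 236 to 257 against 259.9 to 316 CPM. Apaf1, the scaffold of the apoptosome, was at 8.46 to 11.9 CPM in control naive, day 1 and day 2 and at 29.1 to 37.6 CPM in the 5 libraries that stand apart. Of 4 enzymes that set Mcl1 protein turnover, the ubiquitin ligase Huwe1 was at 33.6 to 44.4 CPM in those 3 and 83.8 to 116 CPM in the 5, and the deubiquitinase Usp9x at 35.1 to 51.8 and 90.9 to 112 CPM. Xiap, a caspase inhibitor, was also wholly higher in the 5 (23.2% of all genes), and Bid, Diablo and Vdac2 were wholly lower (12.5%). Vdac1, Vdac2 and Xiap are named after their values were seen.

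Some genes tracked single members across the 8 libraries. Ranked by the root mean square difference of centred log2 CPM among 6483 genes, Smad7 (0.15), Nabp1 (0.17), Taf7 (0.19), Rlim (0.19) and Srsf5 (0.23) were most like Mcl1, where the median gene differed by 0.51. Map4k5 (0.15), Tnrc6b (0.17), Kdm5b (0.18), Zbtb20 (0.19) and Fam117b (0.19) were most like Bcl2l11, and Icosl (0.11), Mapkapk3 (0.13), P2rx4 (0.14), Fam129a (0.16) and Clcn7 (0.16) most like the Bcl2a1 sum. These are descriptions over 8 libraries that share the depth and the split given above.

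Cells within a library could be tested by ranking them for a programme. The cut is relative, so a library with little of a programme still has cells called high. Chemokine-high cells were the top 20% of each library by the share of UMIs in Ccl3 and Ccl4 (in control naive and control day 3, all cells with a UMI of either, 17.96% and 14.97%), and interferon-high and immediate-early-high cells were the top 20% by 12 type I interferon-stimulated genes and by 11 immediate-early genes. UMI sums of the high and the remaining cells of each library were compared across libraries with edgeR's quasi-likelihood test with library as a block and Benjamini-Hochberg adjustment over all genes. Libraries are the replicates here, and they span genotypes and time points.

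In chemokine-high cells all 3 Bcl2a1 copies were higher. Bcl2a1d rose by 1.01 on the log2 scale (SE 0.10, edgeR adjusted p = 2.52e-08), Bcl2a1b by 0.49 (SE 0.06, edgeR adjusted p = 7.10e-07) and Bcl2a1a by 0.41 (SE 0.07, edgeR adjusted p = 7.75e-05). They were 3 of 10 members called higher, against 3.60% of 9893 genes, and none was called lower (0.485% of genes). Bcl2l1 was higher by 0.22 (edgeR adjusted p = 0.054) and Mcl1 by 0.20 (edgeR adjusted p = 0.072), which did not pass. The 3 calls held without any 1 library, and without cells that carried 2 markers of another cell type. The class began at any UMI of Ccl3 or Ccl4 in control naive and control day 3, and at 0.0196% of a cell's UMIs in control day 2. It began at 0.203% in control day 1 and at 0.0263% to 0.0751% in A20 cKO, and the part of these cuts in the differences was not tested. With only control naive, day 1 and day 2, the differences were 0.18 for Bcl2a1d (edgeR adjusted p = 1.00), 0.20 for Bcl2a1b (edgeR adjusted p = 0.29) and 0.07 for Bcl2a1a (edgeR adjusted p = 1.00).

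Interferon-high cells gave the same 3 genes. Bcl2a1d rose by 0.81 (SE 0.14, edgeR adjusted p = 9.57e-04), Bcl2a1a by 0.55 (SE 0.09, edgeR adjusted p = 6.68e-04) and Bcl2a1b by 0.41 (SE 0.10, edgeR adjusted p = 0.023), where 4.36% of 9844 genes were called higher, and no member was lower (0.345% of genes). The call of Bcl2a1b was lost without any of the 4 A20 cKO libraries (edgeR adjusted p of 0.057 to 0.11). Control naive, day 1 and day 2 alone gave 0.10, 0.14 and 0.05 for Bcl2a1d, Bcl2a1a and Bcl2a1b, with edgeR adjusted p of 0.83 to 0.97. In these libraries the class began at only 0.0169% to 0.0307% of a cell's UMIs, against 0.171% to 0.394% in the libraries that stand apart. The part of this in the differences was not tested.

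By library, Bcl2a1d in chemokine-high over other cells differed by 0.10 in control naive, 0.33 at day 1, 0.01 at day 2 and 0.94 at day 3, and by 1.12, 1.23, 1.40 and 1.47 in A20 cKO naive and days 1, 2 and 3. In interferon-high cells they were 0.72, 0.00, 0.09 and 0.24 for control, against 1.17, 1.23, 1.102 and 0.92 for A20 cKO. In both classes every A20 cKO library lay above every control library for Bcl2a1d, and also for Bcl2a1b. Bcl2a1a overlapped in both. It was at 0.45 in control day 3 against 0.38 in A20 cKO day 1 for chemokine-high cells. For interferon-high cells it was at 0.64 in control naive against 0.60 in A20 cKO day 1. The share of all genes separated in this way was not obtained, so these separations have no background beside them. A term for genotype in the same fit, added after these values were seen, put the chemokine-high difference of Bcl2a1d at 0.43 in control and 1.35 in A20 cKO (difference 0.92, edgeR adjusted p = 4.41e-04) and the interferon-high difference at 0.19 and 1.23 (difference 1.04, edgeR adjusted p = 0.0015). That of Bcl2a1b was larger in A20 cKO by 0.46 (edgeR adjusted p = 0.0068) and 0.68 (edgeR adjusted p = 0.0068). These were 2 of 10 members in each class, against 0.243% and 0.67% of genes called in either direction. Within the 5 libraries that stand apart, which hold 1 control library, the differences between genotypes were 0.37 for Bcl2a1d and 0.25 for Bcl2a1b in chemokine-high cells and 0.92 and 0.53 in interferon-high cells, and none was called (edgeR adjusted p of 0.95 to 1.00). The other 3 control libraries lie across the split, so genotype and split cannot be told apart in this term. In G2/M and immediate-early-high cells this term called none of the 10 (0.504% and 0.0101% of genes).

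**Figure D4:**
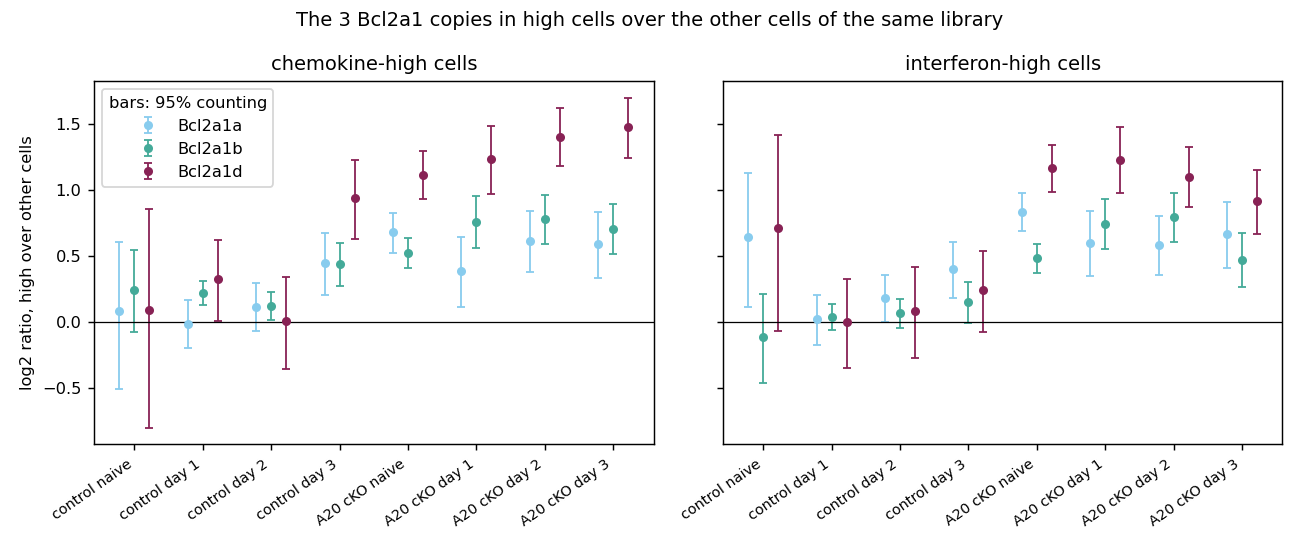
Log2 ratio of each Bcl2a1 copy in chemokine-high (left) and interferon-high (right) cells over the other cells of the same library. Points are libraries with 95% counting intervals. Bcl2a1d in A20 cKO lies between 1.12 and 1.47 on the left and between 0.92 and 1.23 on the right.

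Against the sum of the other two copies, Bcl2a1d was higher in chemokine-high cells in 6 of 8 libraries (mean log2 shift 0.39 ± 0.36, SD over libraries, exact sign-flip permutation test, two-sided p = 0.039, adjusted over 12 comparisons 0.094) and in interferon-high cells in 6 of 8 (0.30 ± 0.28, exact permutation p = 0.055, adjusted 0.11). This test was added after the values were seen, and none of its 12 comparisons passed the adjustment.

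Immediate-early-high cells differed in a single member. Mcl1 rose by 0.31 (SE 0.06, edgeR adjusted p = 0.0021), 1 of 10 members against 1.89% of 9896 genes called higher, and no member was lower (2.00% of genes). By library the Mcl1 difference was -0.11 in control naive, 0.52 at day 1, 0.04 at day 2 and 0.32 at day 3, and 0.37, 0.33, 0.14 and 0.41 in A20 cKO. It was positive in 7 of 8 libraries and widest in control day 1, and it stayed called without any 1 library (edgeR adjusted p of 5.75e-04 to 0.032). Mcl1 was called on both sides of the split. The difference was 0.33 in control naive, day 1 and day 2 (edgeR adjusted p = 0.0012) and 0.32 in the 5 libraries (edgeR adjusted p = 0.016). On the side of control naive, day 1 and day 2, it lay in day 1 (counting interval 0.40 to 0.63). The intervals of control naive (-0.73 to 0.44) and day 2 (-0.15 to 0.22) included no difference.

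Dividing cells were compared in the 6 libraries with at least 20 cells holding UMIs of 3 or more of 18 core G2/M genes, against cells with none. Bcl2l11 fell by 0.68 (SE 0.17, edgeR adjusted p = 0.0037) and Bax by 0.26 (SE 0.08, edgeR adjusted p = 0.020), Bcl2a1b fell by 0.24 (SE 0.08, edgeR adjusted p = 0.037), and Bak1 rose by 0.38 (SE 0.12, edgeR adjusted p = 0.027). These 3 lower and 1 higher of 10 members stood against 13.0% and 16.4% of 9328 genes called. Bcl2l11 was lower in G2/M cells in 6 of 6 libraries, with 1 to 76 UMIs in the G2/M cells of a library. G2/M cells were deeper (median 4754 to 6738 UMIs in a library against 2736 to 4043), and with every cell thinned to 2000 UMIs none of the 4 passed, Bcl2l11 at -0.51 with an edgeR adjusted p of 0.29. Without a single library, Bcl2l11 stayed called in all 6 fits, Bax in 4, Bcl2a1b in 2 and Bak1 in 1.

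**Figure D5:**
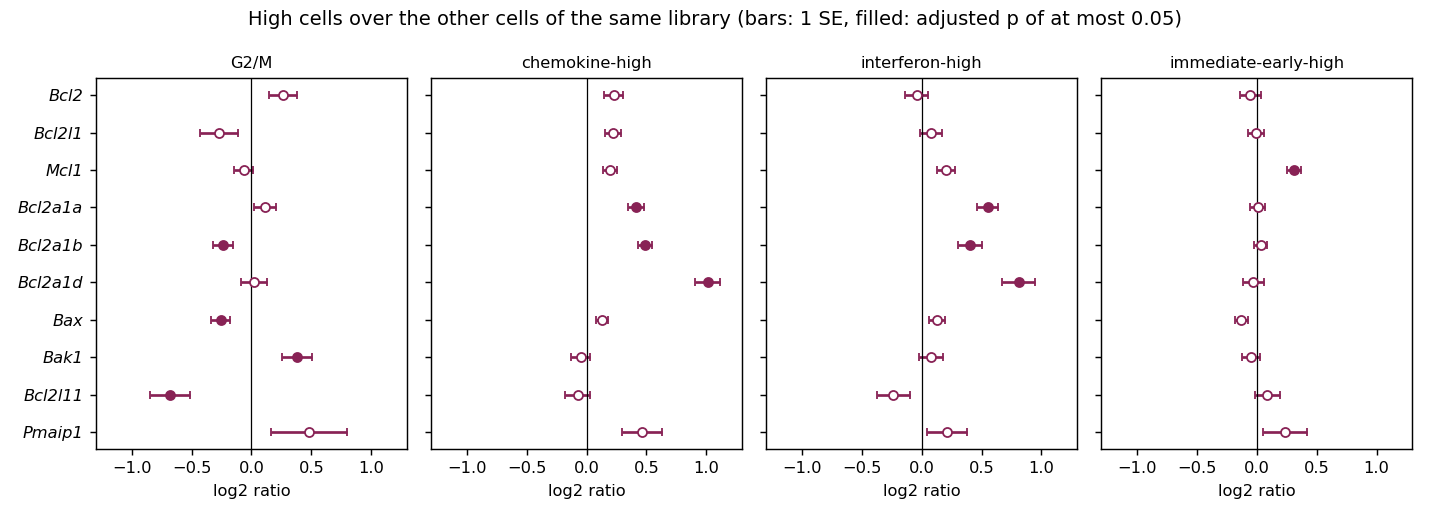
Log2 ratio of each gene in the high cells over the other cells of the same library for the 4 programmes, from edgeR fits over 6 (G2/M) or 8 libraries. Bars are 1 SE, and filled points have an adjusted p of at most 0.05. The 3 Bcl2a1 copies are filled in the chemokine-high and interferon-high panels, and Mcl1 in the immediate-early-high panel at 0.31.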

How the data were processed

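Cells were sorted and libraries prepared with a 10x 3′ kit. Per the labels, the authors made the UMI count matrices with Cell Ranger 2.1.1 on mm10, and the deposited counts are raw whole numbers per gene and cell. Cells with at least 1000 UMIs, 500 genes and at most 10% mitochondrial UMIs were kept. No doublet caller was run. Doublets were gated out at the sort, which does not remove 2 cells caught in 1 droplet, and these were not tested for. UMIs of kept cells were summed per library and given as CPM. Ratios between libraries had 0.5 UMIs added and were centred on the median gene, over genes whose sums held 100 UMIs or more between them, with exact conditional 95% intervals. Shares of cells were taken after thinning to 2000 UMIs. Class sums were tested with edgeR 4.0.16 (R 4.3.3, TMM, filterByExpr, library as a block), with DESeq2 1.42.0 as an alternative. Sequences were aligned with mafft 7.526. The code was tested on simulated data. The members, lists and tests were chosen with earlier results of these data known. All 10 members and the Bcl2a1 sum are described. Other genes come from 3 lists of the pathway, by the 3 largest ratios a list and comparison, of which a selection made with the values known is given, or by likeness, as the 5 genes of at least 20 mean CPM closest to each of 3 profiles. The median gene moved by -0.13 to 0.20 (log2) between libraries, and thinning left out 20 to 310 shallower cells a library. P-values measure how the difference between high and other cells of a library varied across libraries, each a pool of animals. These libraries differ in genotype or time point, so differences between conditions are part of that spread. Alternatives covered normalization, filters, cell selection and leaving out each library.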

Additional observations from a re-analysis of the deposited data

Results flagged for a closer look

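4 results differed between the genotypes in the test of a genotype term, with 4 libraries a genotype, naive and days 1 to 3. In chemokine-high cells the difference of Bcl2a1d was 0.92 larger on the log2 scale in A20 cKO than in control (edgeR adjusted p = 4.41e-04) and that of Bcl2a1b was 0.46 larger (edgeR adjusted p = 0.0068). In interferon-high cells the difference of Bcl2a1d was 1.04 larger (edgeR adjusted p = 0.0015) and that of Bcl2a1b 0.68 larger (edgeR adjusted p = 0.0068). The 5 libraries that stand apart include all A20 cKO libraries and 1 control library, and within them none of the 4 was called, as given above. Interferon-high cells began at 0.0169% to 0.0307% of a cell's UMIs in control naive, day 1 and day 2 and at 0.171% to 0.394% in the 5 libraries, so that the class is not matched between them. Chemokine-high cells began at any UMI of Ccl3 or Ccl4 in control naive and control day 3. They began at 0.203% in control day 1, 0.0196% in control day 2 and 0.0263% to 0.0751% in A20 cKO, so that this class is not matched either. The part of these values in the differences was not tested. The libraries of a genotype are different time points, taken as replicates in this term, which was added after the data were seen. Without any 1 library Bcl2a1d stayed called in both classes, while Bcl2a1b lost its call in chemokine-high cells without control day 1, control day 2, A20 cKO day 1 or A20 cKO day 2 (edgeR adjusted p of 0.050 to 0.069) and in interferon-high cells without control naive, day 1 or day 2 (edgeR adjusted p of 0.052 to 0.062).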

How the results depend on the processing

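No paired analysis was possible because each genotype and time point had 1 library, as far as single comparisons of conditions go. The class comparisons were paired within libraries, and genotypes paired by time point were not tested. No ratio between libraries changed direction while past 2-fold, and most counts of members past 2-fold were the same under the alternatives tried. Without centring, CPM gave 1 member lower instead of 0 on control day 1 against naive, 2 higher instead of 1 on A20 cKO day 1 against control day 1, 0 instead of 1 on A20 cKO day 2 against naive, and 3 instead of 1 on control day 3 against day 2. TMM gave 2 higher on control day 1 against naive, and 0 on control day 3 against day 2, as did DESeq2 size factors and a minimum of 20 UMIs, and a stricter cell filter gave 1 lower there instead of 0. The cause was not tested.

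The numbers of genes called come from separate fits. For G2/M cells (2745 in the fit reported) 1039 passed without the library block, 1485 after thinning and 2017 to 2798 without 1 library. In chemokine-high cells (404) 1 passed without the block, 53 in control naive, day 1 and day 2, and 248 (without A20 cKO naive) to 510 without 1 library. In interferon-high cells (463) 879 passed with no filter, 0 without the block by edgeR (385 at an unadjusted p under 0.05, and 437 by DESeq2 with the block), 1218 in the 5 libraries that stand apart, 44 in the other 3 and 312 to 653 without 1 library. In immediate-early-high cells (385) 659 passed with no filter, 0 without the block by edgeR (87 unadjusted, and 268 by DESeq2 with the block), 174 after thinning, 221 for the top 10% of cells, 193 in the 5, 113 in the other 3, and 200 to 469 without 1 library, lowest without control day 3 (200), A20 cKO naive (216) and A20 cKO day 3 (234). DESeq2 with the block gave 2203 for G2/M and 277 for chemokine-high cells. The library as a replicate block is part of each of these fits, and with no replicate block the Bcl2a1 and Mcl1 calls were lost. Fits without cells with 2 markers of another type, within the 5 and within the other 3, and those for genotype, were chosen after seeing the data. Pmaip1 (10 to 155 UMIs a library) is limited by depth.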
